A study of Bos taurus with 46 samples.

Results

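The suppressors of cytokine signalling are a family of 8 genes, *SOCS1* to *SOCS7* and *CISH*. They were taken from the count table by their symbols. All 8 were found among the 30675 genes of the count table, and all 8 passed the filter on low counts in every comparison. Leukocytes from the blood of 23 Angus crossbred heifers of breeding age were sequenced on D55 and on D105 of gestation, which gave 46 libraries, 2 from each animal.

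The heifers formed 3 treatment groups. Of these, 8 conceived by artificial insemination (AI) and were the controls of the study, whose fetuses the labels call healthy. The other heifers each received 2 embryos that had been produced in vitro (IVP) from Angus or Angus crossbred oocytes and the semen of 1 Brahman bull. In 6 heifers the fetuses stayed below the upper weight limit that the study set from the AI fetuses (IVP-Normal), and in 9 heifers a fetus reached it (IVP-LOS, for large offspring syndrome, an overgrowth of fetuses seen after in vitro production). The weight was taken when the fetuses were collected on D105, so on D55 the names IVP-Normal and IVP-LOS tell what came later. Heifers 604 and 664 of the IVP-LOS group carried the 2 largest fetuses. By the study's account each of the 8 AI heifers carried 1 fetus, while some heifers of both IVP groups, 604 among them, carried 2. The number of fetuses was not part of the fits here, so its share in the differences between treatments was not tested. The fetuses were not sampled here, only their mothers' blood.

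Cytokines such as interferons, interleukins and growth hormone bind receptors that hold JAK kinases, the JAKs phosphorylate STAT transcription factors, and the STATs switch on target genes in the nucleus. *SOCS1*, *SOCS2*, *SOCS3* and *CISH* are among those targets, and the proteins they encode shut the same pathway off again. Every family member has an SH2 domain, which binds phosphorylated tyrosines, and a SOCS box, which recruits Elongin B, Elongin C and Cullin 5 into a ubiquitin ligase. In blood, SOCS1 and SOCS3 are known for holding back interferon and interleukin-6 type signals in T cells, macrophages and neutrophils.

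Levels are given as CPM, a gene's reads scaled to a fixed total of reads on genes, after adjustment of the libraries by TMM, a method that equalizes them on genes that do not differ strongly. The libraries held between 18692653 and 24502012 reads on genes. The member with the fewest reads in a library still had 58 (*SOCS6*), so no member was near 0 anywhere. Reads on no gene made up 32.4% of the D105 library of heifer 604 and 30.4% of that of heifer 664, against 20.2% to 25.9% in the other 21 D105 libraries, and these 2 libraries also held fewer reads on genes (18692653 and 19641136) than any other library. By their labels the AI and IVP-LOS libraries of D105 are in the set BACKUP, and the remaining libraries are in the set New. Day and set therefore cannot be told apart in AI and IVP-LOS heifers, whereas in IVP-Normal heifers both days belong to the set New. For the same reason treatment and set cannot be told apart where IVP-Normal heifers are compared with the others on D105 or in their change between days. Blood was drawn over several seasons, and the labels give no season for a library. The study's supplement places D55 blood in winter and D105 blood in summer, at least for the heifers whose 2 libraries clustered together. Where season changes with day in this way the 2 cannot be told apart, and this can hold in IVP-Normal heifers too. The part of season in the differences between days was not tested.

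*SOCS3* and *SOCS5* were the members called between days by the unpaired test, and *SOCS6* was called as well in AI heifers when each animal was set against itself. *SOCS3*, which blocks the receptors of the interleukin-6 family and of granulocyte colony-stimulating factor, rose from D55 to D105 in AI and in IVP-Normal heifers. *SOCS5*, a member with a long N-terminal region that has been linked to interleukin-4 and epidermal growth factor signalling, fell in the same groups. In AI heifers 2 of the 8 members were called at a false discovery rate (FDR) of 0.05, against 9.95% of the 15248 genes tested, and in IVP-Normal heifers 2 of 8 against 2.45% of 15248. In IVP-LOS heifers 0 of 8 were called by edgeR, against 0.251% of the 15163 genes tested, with 1 member and 1911 genes at an unadjusted p under 0.05.

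**Figure D1:**
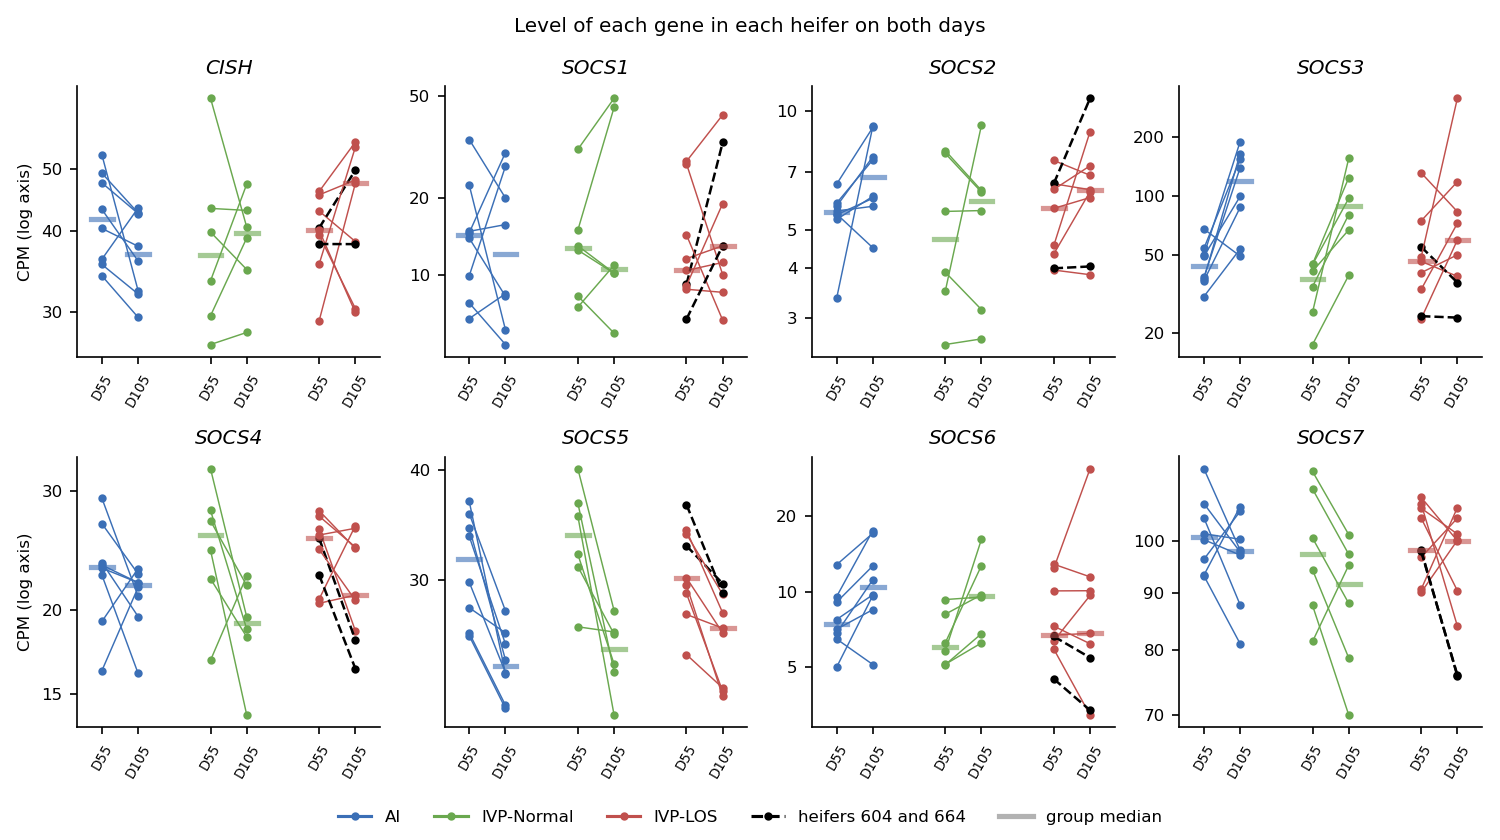
Level of the 8 genes in CPM (vertical log axis, one scale per gene) on D55 and D105 in AI, IVP-Normal and IVP-LOS heifers. Each line joins the libraries of 1 heifer, the thick bars are group medians, and the dashed black lines are heifers 604 and 664. *SOCS3* lines go up in 13 of the 14 AI and IVP-Normal heifers, and *SOCS5* lines go down in 23 of 23 heifers.

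On D55 *SOCS3* lay between 30.7 and 67.7 CPM in AI heifers, with a median of 43.8 CPM. On D105 it lay between 49.3 and 189 CPM, with a median of 119.3 CPM. It was higher on D105 in 7 of 8 heifers, and 6 of the 8 D105 levels were above every D55 level. Heifer 647 went the other way, from the highest D55 level of its group (67.7 CPM) to the lowest D105 level (49.3 CPM). On the log2 scale the difference was 1.37 (standard error 0.26, FDR = 0.00230, edgeR's quasi-likelihood test), and the median change within a heifer was 2.60-fold.

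In IVP-Normal heifers *SOCS3* lay between 17.5 and 44.9 CPM on D55 (median 37.9 CPM) and between 39.4 and 156 CPM on D105 (median 88.7 CPM). It was higher on D105 in 6 of 6 heifers, from 1.63-fold in heifer 669 to 6.09-fold in heifer 628. Only the D105 level of heifer 519, 39.4 CPM, fell into the D55 range. By edgeR the D105 level was higher by 1.43 on the log2 scale (standard error 0.31, FDR = 0.0259). Both days of this group came from the set New. The call was kept without heifer 519 or 669, and lost without 688, 628, 560 or 633 (edgeR FDR between 0.0818 and 0.121, log2 fold change between 1.17 and 1.51). It was also lost with all 46 libraries in 1 fit (1.43, standard error 0.45, edgeR FDR = 0.0562).

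In IVP-LOS heifers the D55 levels of *SOCS3* ran from 23.6 to 131 CPM (median 46.3 CPM) and the D105 levels from 23.9 to 314 CPM (median 59.5 CPM). The 2 days overlapped almost entirely. *SOCS3* was higher on D105 in 5 of 9 heifers, from 48.6 to 314 CPM in heifer 637, and was lower in heifers 557, 604, 616 and 664. The log2 fold change of 0.75 (standard error 0.45) did not pass the test (edgeR FDR = 0.527), and without heifer 637 it was 0.18 (standard error 0.37, FDR = 0.893). By the unpaired test, whose standard errors leave out that each heifer gave 2 libraries, the change between days was not shown to differ between treatments. When each animal was set against itself, no member was called for such a difference either. For IVP-LOS against AI the difference of the 2 changes in *SOCS3* was -0.62 on the log2 scale (standard error 0.55, edgeR FDR = 0.921), and 2 standard errors on either side spanned -1.72 to 0.48. Against IVP-Normal it was -0.69 (standard error 0.62, edgeR FDR = 0.99997).

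**Figure D2:**
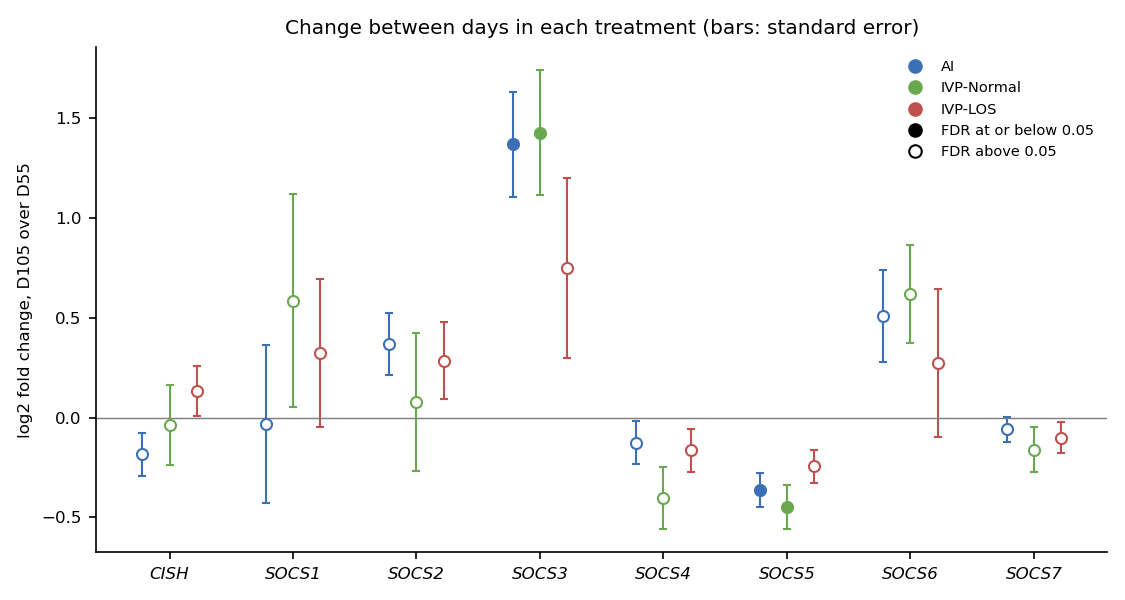
Log2 fold change of each gene, D105 over D55, in AI, IVP-Normal and IVP-LOS heifers, with standard errors as bars. Filled points had an FDR at or below 0.05. These were *SOCS3* (1.37 and 1.43) and *SOCS5* (-0.36 and -0.45) in AI and IVP-Normal heifers, while every IVP-LOS point is open. The test is the unpaired one, and *SOCS6* in AI heifers (0.51) is open here but was called with the heifer as a block (0.48).

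*SOCS5* moved less but in more animals. In AI heifers it lay between 25.9 and 36.9 CPM on D55 (median 31.7 CPM) and between 21.4 and 27.7 CPM on D105 (median 23.9 CPM). The D105 level was below every D55 level in 6 of 8 heifers. By edgeR the difference was -0.36 on the log2 scale (standard error 0.087, FDR = 0.0113), and the call held without each of the 8 heifers in turn.

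In IVP-Normal heifers *SOCS5* lay between 26.5 and 40.2 CPM on D55 and between 21.04 and 27.7 CPM on D105. The medians were 33.8 and 25.0 CPM, and 5 of the 6 D105 levels were below every D55 level. Between the days the log2 difference was -0.45 (standard error 0.11, edgeR FDR = 0.0471). This call was lost without any 1 of the 6 heifers, with FDR between 0.0530 and 0.271 and a log2 fold change between -0.52 and -0.37, and without the filter on low counts (-0.44, edgeR FDR = 0.0646). In IVP-LOS heifers the range was 24.7 to 36.6 CPM on D55 and 22.1 to 29.7 CPM on D105, a difference of -0.24 on the log2 scale (standard error 0.082) that did not pass (edgeR FDR = 0.206). The direction was shared by the animals of all groups: the CPM was lower on D105 in 8 of 8 AI, 6 of 6 IVP-Normal and 9 of 9 IVP-LOS heifers. With upper-quartile scaling it was lower in 22 of 23. The share of all genes that were lower in every heifer was not counted. In the 17 AI and IVP-LOS heifers the set changed together with the day. The part of cell type markers in the result for *SOCS5* was not tested.

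*SOCS6*, which has been linked to receptor tyrosine kinases such as KIT and the insulin receptor, had positive log2 fold changes in the 3 groups. In AI heifers it lay between 5.01 and 12.8 CPM on D55 and between 5.13 and 17.5 CPM on D105, and 7 of 8 heifers were higher on D105. Its log2 fold change of 0.51 (standard error 0.23) did not pass (edgeR FDR = 0.197). With the heifer as a block, which sets each animal against itself, it was 0.48 (standard error 0.13, FDR = 0.0289), so that 3 of 8 members were called in AI heifers, against 17.1% of the 15248 genes by the blocked test. In IVP-Normal heifers *SOCS6* lay between 5.12 and 9.32 CPM on D55 and between 6.25 and 16.2 CPM on D105, higher on D105 in 6 of 6, at a log2 fold change of 0.62 (standard error 0.25, FDR = 0.282), and with the block the FDR was 0.119. In IVP-LOS heifers it lay between 4.49 and 12.9 CPM on D55 and between 3.23 and 30.9 CPM on D105, higher on D105 in 4 of 9, and the log2 fold change of 0.27 (standard error 0.37, FDR = 0.819) was -0.09 without heifer 637.

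The 5 other members passed the test in none of the 3 groups. *SOCS2*, the suppressor of growth hormone signalling, was at a median of 5.54 CPM on D55 and 6.80 CPM on D105 in AI heifers, higher on D105 in 7 of 8 (log2 fold change 0.37, standard error 0.16, edgeR FDR = 0.161). In the reference annotation used here the span of *SOCS2* overlaps that of *LOC132345250*. The study names the default union mode of counting and does not spell out the strand setting. Whether its annotation held this overlap, and whether the overlap changed the *SOCS2* counts, was not tested. *SOCS4*, the close relative of *SOCS5*, had a log2 fold change of -0.40 in IVP-Normal heifers (standard error 0.16, FDR = 0.261) and was lower on D105 in 17 of 23 heifers over the groups. *SOCS7*, which carries a nuclear import signal, was also lower on D105 in 17 of 23 heifers, with log2 fold changes of -0.06, -0.16 and -0.10 in AI, IVP-Normal and IVP-LOS heifers. *CISH*, a STAT5 target that restrains interleukin-2 and growth hormone receptors, had log2 fold changes of -0.18, -0.04 and 0.13 in the same order. *SOCS1*, which binds the JAK kinases themselves, had -0.03, 0.58 and 0.32, with standard errors of 0.40, 0.53 and 0.37. Over both days *SOCS1* lay between 5.35 and 33.8 CPM in AI, 5.93 and 48.9 CPM in IVP-Normal and 6.66 and 42.2 CPM in IVP-LOS heifers, and *CISH* between 29.4 and 52.6 CPM, 26.7 and 64.4 CPM, and 29.1 and 55.0 CPM. The days overlapped in each of these groups.

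The members' median log2 fold change was -0.05 in AI, 0.02 in IVP-Normal and 0.20 in IVP-LOS heifers, and over all genes tested it was -0.02, -0.03 and 0.01. The rise of *SOCS3* and the fall of *SOCS5* thus lie within a family whose members did not move one way.

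Markers of neutrophils moved with *SOCS3*. All 8 neutrophil markers (*CXCR1*, *CXCR2*, *S100A8*, *S100A9*, *S100A12*, *MMP9*, *ADGRE3* and *TREM1*) were called higher on D105 in AI heifers, 5 of 8 in IVP-Normal heifers and 0 of 8 in IVP-LOS heifers, where the 8 log2 fold changes were positive, between 0.62 and 4.95. Their summed level was 612 to 1495 CPM on D55 and 1779 to 4871 CPM on D105 in AI heifers, and 382 to 1053 CPM and 1049 to 4914 CPM in IVP-Normal heifers. In IVP-LOS heifers it was 453 to 1488 CPM on D55 and 325 to 12357 CPM on D105, with the highest value in heifer 637. The sum was higher on D105 in only 5 of the 9 IVP-LOS heifers, and its median was 1050 CPM on D55 and 1149 CPM on D105. None of the 8 markers was at 0 in any library, but *MMP9* (lowest 0.12 CPM, median 1.12 CPM) and *CXCR1* (lowest 0.16 CPM) came near it. *S100A12* had the highest level of the 8 (median 725 CPM, lowest 229 CPM) and so weighs most in the sum. Their part in the result for *SOCS3* was not tested, and in bulk leukocytes more cells of a type and more RNA per cell cannot be told apart.

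**Figure D3:**
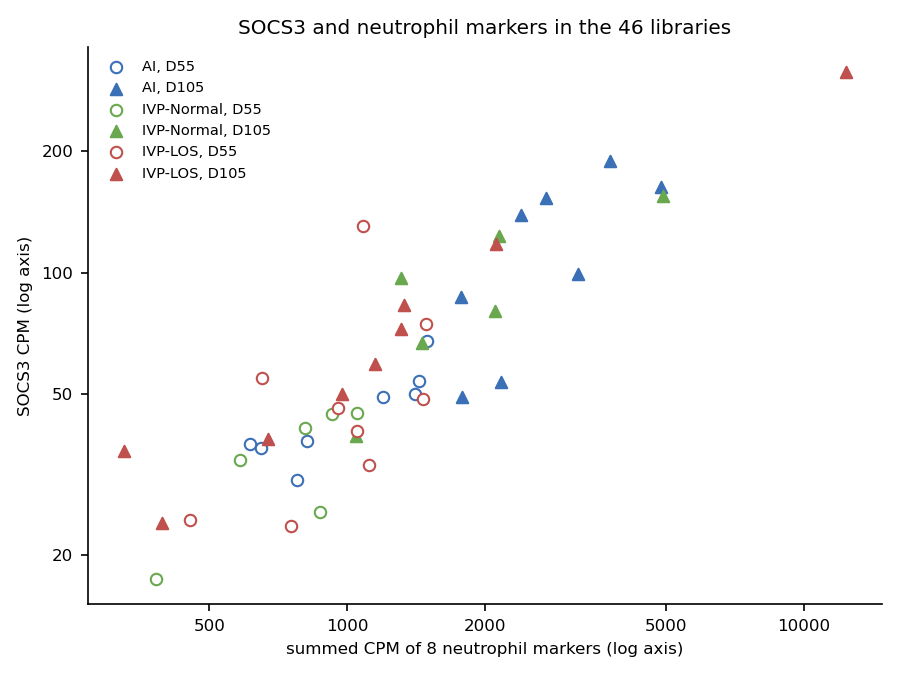
*SOCS3* in CPM against the summed CPM of the 8 neutrophil markers in the 46 libraries (both axes log). Open circles are D55, filled triangles D105, and colours are treatments. The D105 library of heifer 637 is at the top right (12357 and 314 CPM), the D105 libraries of 604 and 664 are at the left (325 and 36.1 CPM, 393 and 23.9 CPM), and the D55 library of heifer 616 has 131 CPM of *SOCS3* at a marker sum of 1083 CPM.

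Of the 23 heifers, *SOCS3* was higher on D105 in 18 and the neutrophil sum in 19. These counts alone put many heifers on the same side, and a link was not tested. *SOCS3* and the sum were both higher in 17 heifers and both lower in 3. The exceptions were heifers 512, 616 and 647. In heifers 616 and 647 *SOCS3* was lower on D105 (131 to 83.1 CPM and 67.7 to 49.3 CPM) while the sum was higher (1083 to 1331 CPM and 1495 to 1781 CPM). Over the 46 libraries the genes whose levels ran most like *SOCS3* included *P2RY13*, a receptor for ADP (r = 0.93), and *ABHD2*, a lipid hydrolase (r = 0.92). These correlations share the libraries of the same animals and describe likeness only. Markers of T cells (5 tested), B cells (5), platelets (4), red cells (3) and eosinophils (only 1) had 0 calls between days in the 3 groups. The 5 B cell markers still had negative log2 fold changes in AI (-0.42 to -0.23) and IVP-Normal heifers (-0.47 to -0.14). In IVP-LOS heifers 2 of them were higher and 3 lower. Monocyte markers had 2 of 5 called higher in AI heifers (*CD68* and *CD14*). Of the 5 NK and cytotoxic cell markers only *GZMB* was called, higher in IVP-Normal heifers, where the 4 others had negative log2 fold changes. *GZMB* was low, with a median of 3.73 CPM over the 46 libraries.

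The other genes of the pathway were counted in lists. Over all genes tested 7.21% were called higher and 2.73% lower in AI heifers, and 2.27% higher and 0.184% lower in IVP-Normal heifers. The counts of the lists were not tested against these shares. Of the cytokine ligands, 4 of 9 tested in AI heifers were called higher and 0 lower, led by *OSM* (log2 fold change 3.79, standard error 0.61), *LIF* (2.40, standard error 0.45) and *IL12B* (1.91, standard error 0.39). *OSM* and *LIF* encode interleukin-6 family cytokines, the family whose shared receptor SOCS3 binds. In IVP-Normal heifers 2 of 7 were called higher, *OSM* (2.83, standard error 0.61) and *IL12B* (2.43, standard error 0.59). In IVP-LOS heifers 0 of 9 were called.

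Of the receptors that signal through JAKs, 10 of 28 tested were called higher in AI heifers and 0 lower. The largest changes were in *IL3RA* (1.71, standard error 0.30), *IL15RA* (1.21, standard error 0.23) and *IL13RA1* (1.09, standard error 0.26), which encode receptor chains for interleukins 3, 15 and 13. In IVP-Normal heifers *IL3RA* (1.71, standard error 0.34) and *IL10RB* (0.49, standard error 0.11) were higher and *IL2RB* (-0.53, standard error 0.12) lower, and in IVP-LOS heifers 0 of 29 were called. Of the kinases, *JAK2* (0.61, standard error 0.12) and *JAK1* (0.25, standard error 0.08) rose in AI heifers. Of the 7 STAT genes, *STAT2* (1.21, standard error 0.36), *STAT5B* (0.55, standard error 0.10) and *STAT3* (0.43, standard error 0.10) rose in AI heifers, and neither kinases nor STATs were called in the IVP groups.

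Of 10 further genes known to be induced by STATs, *BCL6*, a transcriptional repressor, rose in AI (1.82, standard error 0.28) and IVP-Normal heifers (1.87, standard error 0.32), and *PIM1*, a survival kinase, in AI heifers (0.29, standard error 0.08). Of 12 other negative regulators of the pathway only *PIAS1*, which encodes a protein inhibitor of activated STATs, rose in AI heifers (0.45, standard error 0.08). The list of ubiquitin ligase subunits held those that the SOCS box recruits (*ELOB*, *ELOC* and *CUL5*) and also *CUL2*, *RNF7* and *RBX1*. These 6 had 0 calls between days in the 3 groups, with log2 fold changes between -0.16 and 0.21. The same marker counts as above stand beside these lists, and the part of the neutrophil markers was not tested.

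Between treatments on the same day the family did not differ by the test. On D55, 0 of 8 members were called for IVP-Normal against AI, for IVP-LOS against AI and for IVP-LOS against IVP-Normal, and 0 on D105 for the same comparisons. The share of all genes called in these 6 comparisons was 0% in each, by edgeR's quasi-likelihood test. At an unadjusted p under 0.05 there were 0 members in each of the 6 and between 501 and 1522 genes, and the likelihood ratio tests of edgeR and DESeq2 also called 0 members. The D105 comparisons with IVP-Normal also set the set New against the set BACKUP. The largest differences were in *SOCS3* on D55, where IVP-LOS was above IVP-Normal by 0.62 on the log2 scale (standard error 0.35, FDR = 0.839), and in *SOCS1* on D105, where IVP-Normal was above AI by 0.54 (standard error 0.53, FDR = 0.691). The intervals are wide for these members: 2 standard errors on either side of the *SOCS1* difference spanned -0.52 to 1.60. For *SOCS7* the standard errors were 0.056 to 0.11, and its differences between treatments lay between -0.13 and 0.09. Likewise, 0 of 8 members and 0% of all genes were called when the changes from D55 to D105 were tested against each other, in 3 pairs of treatments, with 0 members at an unadjusted p under 0.05 and between 134 and 795 genes.

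On D105, 2 of the 8 members, *SOCS3* and *SOCS7*, were called lower in heifers 604 and 664 than in the other 21 heifers, against 21.1% of the 16841 genes tested in either direction. The count is near that share and is no result about the family. The study had singled out this pair partly because the D105 libraries of the 2 animals clustered apart, so the test of these libraries is not independent of the choice. On D105 *SOCS3* was at 36.1 CPM in 604 and 23.9 CPM in 664, and in the others it ran from 38.9 to 314 CPM with a median of 87.3 CPM. Both animals were thus below every other heifer. The difference from the others was -1.86 on the log2 scale (standard error 0.65, edgeR FDR = 0.0449). *SOCS7* was at 76.0 CPM in 604 and 75.9 CPM in 664, and in the others at 70.0 to 107.4 CPM with a median of 97.9 CPM. Heifer 628 was lower than both, and the test gave -0.36 on the log2 scale (standard error 0.12, edgeR FDR = 0.0430).

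Neither call was firm. With 604 or 664 left out, and the lone animal assumed to vary like the others, 0 members were called. The log2 fold change of *SOCS3* was then -2.18 (FDR = 0.153) or -1.59 (FDR = 0.286). Against the other 7 IVP-LOS heifers alone it was -1.86 (standard error 0.80, edgeR FDR = 0.142), and *SOCS7* was at -0.42 (standard error 0.12, FDR = 0.0530). With edgeR's likelihood ratio test *SOCS7* was at -0.36 (FDR = 0.0559) and with upper-quartile factors at -0.33 (FDR = 0.0629). Without the filter on low counts *SOCS3* was at -1.87 (edgeR FDR = 0.0573) and *SOCS7* at -0.37 (FDR = 0.0557). Within the set BACKUP both were called, with -1.92 for *SOCS3* (FDR = 0.0441) and -0.40 for *SOCS7* (FDR = 0.0109).

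**Figure D4:**
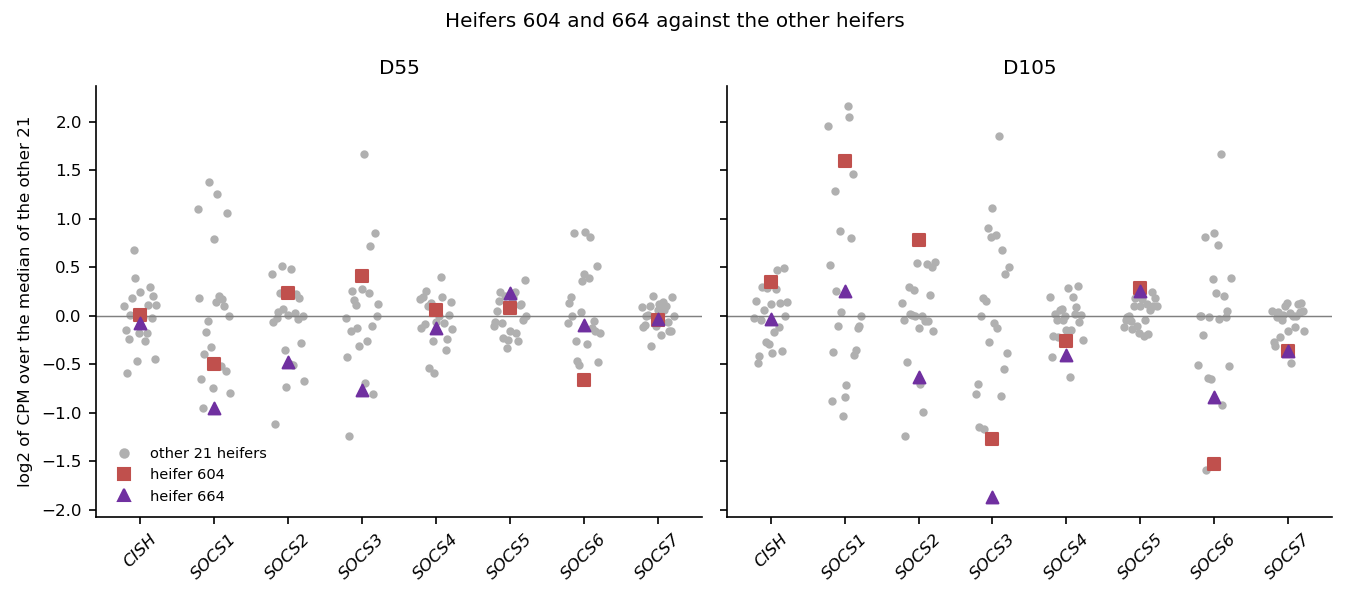
Level of each gene in heifers 604 (squares) and 664 (triangles) and in the other 21 heifers (grey), as the log2 of CPM over the median of the other 21, on D55 and D105. On D105 both animals lie below the grey points for *SOCS3* (36.1 and 23.9 CPM against at least 38.9 CPM) and above them for *SOCS5* (29.7 and 29.0 CPM against at most 28.9 CPM).

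*SOCS5* was the only other member in which both animals lay outside the range of the others on the same side on D105, at 29.7 CPM in 604 and 29.0 CPM in 664 against 21.04 to 28.9 CPM. Its log2 fold change of 0.22 (standard error 0.11) did not pass the test (edgeR FDR = 0.151). That made 2 of 8 members with both animals outside, against 14.2% of all genes tested on D105. *SOCS6* was at 3.37 and 5.47 CPM in the pair and at 3.23 to 30.9 CPM in the others (log2 fold change -1.34, standard error 0.56, FDR = 0.0820). *SOCS1* and *SOCS2* separated the 2 animals from each other: on D105 604 had 32.9 CPM of *SOCS1* and 664 had 13.0 CPM, and 604 had 10.8 CPM of *SOCS2*, more than any other heifer, while 664 had 4.05 CPM.

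On D55 0 of 8 members were called between the pair and the other 21 heifers, against 0.0179% of the 16733 genes tested (3 genes), with 0 members and 790 genes at an unadjusted p under 0.05 and 0 members by the likelihood ratio tests of edgeR and DESeq2. No member had both animals outside the range of the others, against 0.843% of all genes. *SOCS3* was at 55.0 CPM in 604, above 18 of the other 21, and at 24.3 CPM in 664, above 2 of them. *SOCS7* was at 98.0 and 98.2 CPM, beside a median of 100.7 CPM. *SOCS3* was thus low on both days in 664, and low in 604 on D105 but not on D55. The 8 neutrophil markers had negative log2 fold changes in the pair on D55 as well, between -3.26 and -0.71. Of these 0 were called by edgeR's quasi-likelihood test. The study, which used the likelihood ratio tests of edgeR and DESeq2, did report 1 of these markers, *ADGRE3*, as different in this pair on D55.

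Markers of several cell types moved with the pair on D105. Of the neutrophil markers 7 of 8 were called lower, of the monocyte markers 4 of 5 lower, of the T cell markers 1 of 5 lower (*CD3D*), of the B cell markers 3 of 5 higher, of the platelet markers 3 of 4 higher and of the 3 tested red cell markers 1 higher (*HBB*), while 0 of 5 NK and cytotoxic cell markers and 0 of 2 eosinophil markers were called. The neutrophil sum was 325 CPM in 604 and 393 CPM in 664, against 672 to 12357 CPM in the others. The monocyte sum was 202 and 388 CPM against 529 to 5810 CPM, and the B cell sum 3783 and 5009 CPM against 1168 to 4255 CPM. The platelet sum was 2596 CPM in 604 and 333 CPM in 664, against 124.7 to 713 CPM, and the T cell sum 1006 and 775 CPM against 739 to 1458 CPM. The red cell sum was 603 CPM in 604 and 140 CPM in 664, against 11.3 to 152 CPM. Of the red cell markers *HBM* was at 0 in 29 of the 46 libraries and *SLC4A1* in 38, and of the eosinophil markers *PRG3* was at 0 in 13. The part of these cell types in the results for *SOCS3* and *SOCS7* was not tested.

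In the same comparison 11.6% of all genes were called higher and 9.48% lower, and the pathway lists, which were not tested against these shares, had calls in both directions. Of the 4 kinases *TYK2* (log2 fold change -0.63, standard error 0.19) and *JAK1* (-0.35, standard error 0.12) were lower. Of the 7 STAT genes *STAT5B* (-0.94, standard error 0.22), *STAT5A* (-0.58, standard error 0.14) and *STAT6* (-0.40, standard error 0.13) were lower, and all 7 had negative log2 fold changes. Of 29 receptors tested 6 were lower, led by *IL6R* (-2.19, standard error 0.61), *IL13RA1* (-2.04, standard error 0.69) and *CSF2RB* (-1.89, standard error 0.65), and 2 were higher, among them *IL12RB1* (0.62, standard error 0.18). *IL6R* encodes the interleukin-6 receptor, whose signal SOCS3 limits.

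Of 10 ligands tested *LIF* (-4.00, standard error 1.24), *IL12B* (-3.15, standard error 1.11) and *IL27* (-1.57, standard error 0.55) were lower. Of the genes induced by STATs *BCL6* (-2.40, standard error 0.85) was lower and *BCL2L1*, a survival gene (1.31, standard error 0.31), higher. Of the other negative regulators *CBL* (-0.83, standard error 0.28) and *PIAS1* (-0.44, standard error 0.15) were lower. The ubiquitin ligase subunits split, with *ELOB* (0.55, standard error 0.13), *RNF7* (0.53, standard error 0.10) and *RBX1* (0.27, standard error 0.09) higher and *CUL5* (-0.30, standard error 0.11) lower.

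Heifers differed strongly from each other in some members and hardly in others. Within a treatment and day the standard deviation of log2(CPM + 1) was 0.83 for *SOCS1*, 0.75 for *SOCS3* and 0.56 for *SOCS6*, above 97.7%, 96.4% and 91.4% of all 16487 genes kept over the 46 libraries. It was 0.39 for *SOCS2*, 0.28 for *CISH* and 0.23 for *SOCS4*. The steadiest members were *SOCS5* (0.17) and *SOCS7* (0.16), both below the median of 0.24 over all genes. *SOCS1* ran from 5.35 to 48.9 CPM over the 46 libraries, *SOCS3* from 17.5 to 314 CPM and *SOCS7* from 70.0 to 116.1 CPM. *SOCS1*, *SOCS3* and *SOCS6* thus vary more than most genes, and *SOCS5* and *SOCS7* less than most.

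A heifer's D55 level told something of its D105 level for *SOCS6*. After the mean of each treatment and day was taken off, the levels of *SOCS6* on the 2 days correlated over the 23 heifers with Pearson's r = 0.72 (one-sided permutation of heifers within treatment, p = 0.00027, FDR = 0.00210) and Spearman's rho = 0.74 (permutation p = 0.00015). Without heifers 616 and 546, whose D55 levels were farthest from the median, r was 0.71. Heifers 637 (12.4 and 30.9 CPM), 546 (12.8 and 17.1 CPM) and 609 (9.57 and 17.5 CPM) were above the median of their treatment on both days, and heifers 604 (4.49 and 3.37 CPM), 557 (5.91 and 3.23 CPM) and 647 (6.49 and 5.13 CPM) were below it on both days. In the 17 heifers whose D105 library is in the set BACKUP r was 0.79, and in the 6 with both libraries in the set New it was 0.23. These 6 are the IVP-Normal heifers, so set and treatment cannot be told apart in this split.

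**Figure D5:**
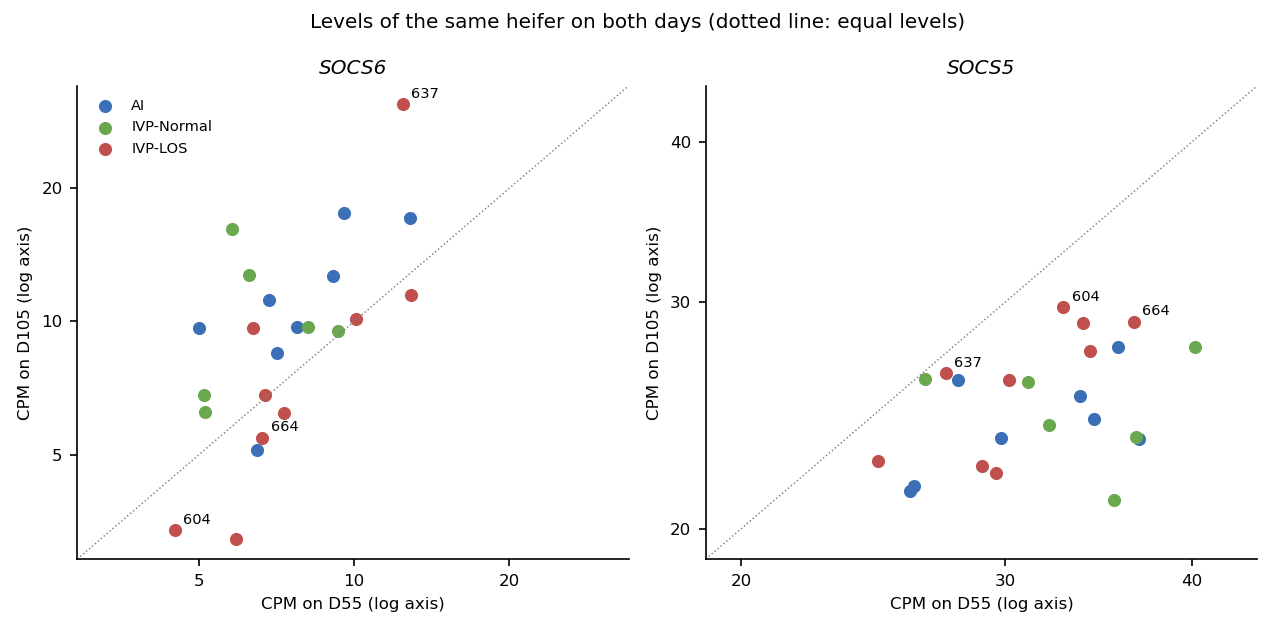
D105 against D55 level of *SOCS6* (left) and *SOCS5* (right) in CPM for the 23 heifers (log axes), coloured by treatment, with heifers 604, 637 and 664 marked and a dotted line of equal levels. *SOCS6* points spread along the line, from heifer 604 (4.49 and 3.37 CPM) to heifer 637 (12.4 and 30.9 CPM), and every *SOCS5* point is below the line.

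For *SOCS5* the correlation was r = 0.46 (permutation p = 0.0168, FDR = 0.0428) and rho = 0.44 (permutation p = 0.0229, FDR = 0.0582). With upper-quartile factors its FDR was 0.0524, without the filter 0.0572, and without heifers 604 and 664 r was 0.39 (permutation FDR = 0.0955). It was 0.32 without heifers 602 and 669, whose D55 levels were farthest from the median. In the 17 AI and IVP-LOS heifers, whose D105 libraries are in the set BACKUP, r was 0.67. In the 6 IVP-Normal heifers, with both libraries in the set New, r was -0.12. Of the 8 members 2 were called, against 41.2% of the 16487 genes tested, and over all genes such agreement was common. The other members were at r = 0.40 (*SOCS1*), 0.39 (*SOCS2*), 0.31 (*SOCS3*), 0.21 (*CISH*), 0.16 (*SOCS7*) and -0.06 (*SOCS4*), with FDR from 0.0831 for *SOCS1* to 0.659 for *SOCS4* by the same permutation. *SOCS1* reached r = 0.81 in the 6 IVP-Normal heifers, where heifer 628 had 30.9 and 48.9 CPM, and 0.22 in the other 17.

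Over the 46 libraries the members did not run as 1 group, and for *SOCS1*, *SOCS2* and *CISH* the highest r with another member was 0.38 (*SOCS2* and *CISH*). *SOCS4* and *SOCS7* ran together (r = 0.74), as did *SOCS3* and *SOCS6* (r = 0.69) and *SOCS4* and *SOCS5* (r = 0.54), and *SOCS3* ran against *SOCS5* (r = -0.46). The genes most like *SOCS6* included *IFNGR2*, a chain of the interferon gamma receptor (r = 0.91), and *NAIP*, an inflammasome sensor (r = 0.89). Those most like *SOCS1* were *CDKN1A*, a cell cycle inhibitor (r = 0.89), *DDIT4*, an inhibitor of mTORC1 (r = 0.88), and *SPRY2*, an inhibitor of growth factor signals (r = 0.83). *SOCS4* was most like *RALGAPB* (r = 0.89), *PURB* (r = 0.89) and *BIRC6* (r = 0.88), and *SOCS5* most like *ITPR1* (r = 0.80), *ZNF473* (r = 0.80) and *HERC2* (r = 0.79). *SOCS2* was most like *NCK2* (r = 0.79), *QSOX1* (r = 0.71) and *CD226* (r = 0.71), *SOCS7* most like *C7H5orf24*, *NIPAL1* and *ETV3* (r = 0.77 each), and *CISH* most like *MYL12A* (r = 0.71), *GAS6* (r = 0.60) and *GNG5* (r = 0.59). Each of these values is over the same 46 libraries, which share heifers, days and sets.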

How the data were processed

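RNA-seq of blood leukocytes gave 46 libraries. Per the study's methods the authors trimmed the 100 bp paired-end reads, aligned them to ARS-UCD1.2 with HISAT2 2.1.0 and counted them on NCBI RefSeq genes with HTSeq-count in union mode, and they deposited whole-number counts per gene and library. A count table on Ensembl identifiers was not used here because no table paired those identifiers with symbols. The 5 summary lines of HTSeq (reads on no gene, ambiguous and the like) were kept out of library sizes.

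Here edgeR 4.0.16 (R 4.3.3) was run on the NCBI counts with TMM factors, filterByExpr at a minimum count of 10 and the quasi-likelihood test, with only the compared groups in each of 14 fits. P-values were adjusted by Benjamini-Hochberg over all genes tested, and genes were called at FDR at or below 0.05. The standard error is the absolute log2 fold change over the square root of F. Fits were tested on simulated data. Agreement between days used log2(CPM + 1) less the treatment and day mean, with 100000 permutations. The alternatives were the likelihood ratio tests of edgeR and DESeq2 1.42.0, upper-quartile factors, no filter, the heifer as a block, all 46 libraries in 1 fit, libraries of 1 set and heifers left out. Fits without heifer 637 were added after the data were seen.

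The same 23 animals were sampled on both days, so heifer numbers pair the libraries: the deviations of a heifer's 2 libraries from their group means correlated at 0.28 or more in 23 of 23 heifers (median r = 0.56). No 2 libraries of a group were near-identical. The members and gene lists were chosen with earlier results of these data known. By a fixed rule the text names all members, up to 3 called genes a direction from each pathway list and the 3 genes most like each member. Some genes that the rule names are not reported here. Listed genes whose symbols were not matched (*CSF3R*, *CRLF2*, *EPX*, *CLC*, *GP1BB*) were not analysed here. Transcript lengths were not used, so levels are not compared between genes. No sequence is shown. Counts of 58 reads or more in every library limit counting error, and the spread between heifers sets the errors given.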

Additional observations from a re-analysis of the deposited data

Results flagged for a closer look

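Dixon's criterion was applied to CPM without logs in 48 groups of libraries (8 members in 3 treatments on 2 days). In 5 of them 1 library lay far from the rest of its group. A chance rate of about 1 of 20 groups holds only for normally distributed levels, and logs of these levels were not put to the criterion. The count of 5 is therefore a description and is not set against chance. *SOCS3* was at 314 CPM in the D105 library of heifer 637 (IVP-LOS, n = 9), where the next highest was 118.04 CPM. *SOCS6* stood out in the same library, at 30.9 CPM beside 11.5 CPM. *SOCS3* was at 131 CPM in the D55 library of heifer 616 (IVP-LOS), beside 74.6 CPM. *SOCS1* was at 30.9 CPM in the D55 library of heifer 628 (IVP-Normal, n = 6), beside 15.0 CPM. *SOCS2* was low in the D55 library of heifer 606 (AI, n = 8), at 3.36 CPM where the next lowest was 5.32 CPM.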

How the results depend on the processing

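Under the alternatives 18 counts of called members moved by more than 1.5 times, in 3 comparisons. In IVP-Normal heifers the count between days of 2 became 1 without the filter (*SOCS3*) and 1 with all 46 libraries in 1 fit (*SOCS5*), and lay between 0 and 1 with a heifer left out. The D105 count for 604 and 664 of 2 became 1 with edgeR's likelihood ratio test and 1 with upper-quartile factors (*SOCS3* both times), 0 without the filter, 0 against the other 7 IVP-LOS heifers and 0 with 604 or 664 left out. The count for agreement of 2 became 1 (*SOCS6*) with Spearman's rho, upper-quartile factors, no filter or without 604 and 664. The heifer as replicate block added *SOCS6* in AI heifers (log2 fold change 0.48) and changed no other call. The causes were not tested.

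Of 520 single values 475 kept direction and call. The 18 that changed sign were not called in either setting. With each heifer left out in turn, *SOCS1* in AI heifers ran from -0.26 to 0.20 (above 0 without 609, 648 or 590). In IVP-Normal heifers *CISH* ran from -0.14 to 0.15 (above 0 without 628 or 560) and was at 0.0084 with the block, and *SOCS2* ran from -0.22 (without 688) to 0.21. *SOCS6* in IVP-LOS heifers ran from -0.087 (without 637) to 0.34. For the pair on D55, leaving out 604 or 664 gave -0.11 or 0.0071 for *CISH*, -0.45 or 0.29 for *SOCS2*, -0.94 or 0.26 for *SOCS3* and -0.12 or 0.091 for *SOCS4*. For the pair on D105 it gave -0.083 or 0.29 for *CISH*, -0.44 or 0.89 for *SOCS1* and -0.69 or 0.71 for *SOCS2*, and against the other IVP-LOS heifers *CISH* was at -0.022. The Spearman correlation of *SOCS4* between days was 0.068. The alternative on Ensembl counts was not run. Groups of 6 to 9 heifers, and a pair of 2, set the limits of these comparisons.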
